A study of Mus musculus with 4 samples.

Results

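Levels of 10 genes of antioxidant defence and metal binding were followed in the mouse eye in subjective and objective day: *Hmox1*, *Nqo1*, *Gclc*, *Gclm*, *Srxn1*, *Txnrd1*, *Slc7a11*, *Gpx3*, *Mt1* and *Mt2*. They were chosen by gene symbol, and all 10 were found among the 22863 genes of the table. The samples came from C3H mice (C3H/f+/+, which make melatonin), 2 per condition, and each pooled 4 eyes of 1 female and 1 male, so that neither sex nor animal can be told apart within a sample. Posterior eye tissue (retina, RPE, choroid and posterior sclera) was collected in the dark. Subjective day mice had spent 18 hours in darkness and were taken at CT 6, although a passage of the study's text gives a longer period. Objective day mice had seen morning light and were taken at ZT 6 after 1 hour in darkness. The comparison therefore asks which transcripts differ after light at the same hour.

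Most of these genes belong to the response governed by Nrf2 (*Nfe2l2*), a transcription factor that Keap1 keeps low until oxidants or electrophiles modify Keap1. Nrf2 then binds antioxidant response elements (ARE) of genes that make glutathione, recycle thioredoxin and degrade heme and quinones. Metallothioneins are small cysteine-rich proteins that bind zinc and copper, and their genes are induced through metal response elements (MRE) by Mtf1 and also by glucocorticoids. Photoreceptors hold many unsaturated lipids and consume much oxygen, which is why the retina is often studied for oxidative stress.

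*Mt1* and *Mt2* were the members with an adjusted p under 0.05 by limma in the main test, but not in every alternative. Their upstream sequences are shown together with that of *Gclm*, which codes for the modifier subunit of the first enzyme of glutathione synthesis. The upstream bases of *Gclm* hold letter matches to the cores of both elements. RefSeq (GRCm38.p6) gave a start for 8 of the 10 members, with 10 windows because *Txnrd1* has several starts. In the 250 bases before each start, the ARE core TGACNNNGC and the MRE core TGCACNC or TGCGCNC were searched on both strands. The regions are chr8:94178839-94179088 for *Mt1*, chr8:94172368-94172617 for *Mt2* and chr3:122245307-122245556 for *Gclm*, all on the plus strand. Capitals mark matches, those on the opposite strand as their reverse complement, and adjoining capitals in *Gclm* are an ARE and an MRE that share bases.
Mt1: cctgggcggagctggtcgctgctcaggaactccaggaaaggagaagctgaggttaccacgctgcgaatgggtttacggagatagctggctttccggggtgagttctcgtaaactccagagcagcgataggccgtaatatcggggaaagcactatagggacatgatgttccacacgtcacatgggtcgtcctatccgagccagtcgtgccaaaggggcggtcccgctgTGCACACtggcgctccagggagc
Mt2: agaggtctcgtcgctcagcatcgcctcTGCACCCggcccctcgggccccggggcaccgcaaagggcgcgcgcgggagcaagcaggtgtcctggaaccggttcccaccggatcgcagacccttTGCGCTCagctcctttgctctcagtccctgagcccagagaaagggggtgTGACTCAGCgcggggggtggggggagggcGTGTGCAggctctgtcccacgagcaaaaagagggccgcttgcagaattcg
Gclm: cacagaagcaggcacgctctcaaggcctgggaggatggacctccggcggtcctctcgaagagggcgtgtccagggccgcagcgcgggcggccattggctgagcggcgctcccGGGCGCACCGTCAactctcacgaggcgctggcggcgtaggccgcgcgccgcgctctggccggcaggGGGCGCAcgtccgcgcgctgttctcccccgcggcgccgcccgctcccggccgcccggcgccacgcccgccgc

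The *Mt2* window held 3 MRE matches and 1 ARE match, TGACTCAGC, at positions -79 to -71 counted from the start. At least 3 MRE matches occurred in 1.26% of all 32851 promoter windows of this length, and at least 1 ARE match in 10.2%. *Mt1* held 1 MRE match, TGCACAC, at positions -23 to -17, as did 21.4% of windows for at least 1. *Gclm* held 1 ARE and 2 MRE matches, and at least 2 MRE matches were found in 5.17% of windows. Among the other members, *Txnrd1* had 1 ARE match before one of its starts and *Srxn1* had 1 MRE match, while the windows of *Gpx3*, *Nqo1* and *Slc7a11* held neither core. A match describes letters only. GENCODE places the start of *Mt1* 7 bases before the RefSeq start and that of *Mt2* 46 bases after it. The windows, their matches and the distances therefore depend on the annotation. Another start of *Mt1* would give another window, so the match counts of *Mt1* and *Mt2* are not compared.

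The values are read counts per gene after scaling by the authors, called adjusted counts here. Column totals ran from 33278417 to 35236783 and follow from the adjustment, so they do not give the sequencing depth. The log2 values of the samples of a condition correlated at 0.991 in subjective day and 0.993 in objective day across genes. Of the table, 17784 genes reached an adjusted count of 10 in at least 2 samples and were tested with limma on log2(value + 1), among them all 10 members. A fold change is objective over subjective day on that scale throughout. With 2 samples against 2, an exact permutation test of a single gene (two-sided) cannot go below p = 0.333, so that every call rests on variances shared across genes. The RPE marker *Best1* was between 0 and 9.70, while the 4 other RPE markers had subjective day means from 3012 to 27192. In such tissue, fewer cells of a type and less RNA per cell cannot be told apart.

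Per kilobase of exon, *Mt1* was the most abundant member. Its mean was 3568 adjusted counts per kilobase in subjective day and 4652 in objective day, compared with 2404 and 3196 for *Mt2*. *Gpx3*, the secreted glutathione peroxidase, followed with 1120 and 1607, then *Srxn1* (626 and 664) and *Gclc* (401 and 421). *Nqo1* reached 243 and 241. *Txnrd1* (176 and 187) and *Gclm* (174 and 146) were adjacent in subjective day. Heme oxygenase *Hmox1*, the best known inducible Nrf2 target, was low at 103 and 117. The cystine transporter gene *Slc7a11* was the lowest with 21.8 and 16.3 per kilobase. The exon length of *Slc7a11* is the longest of the members, 13922 bases over all annotated transcripts, and a shorter transcript in the eye would raise this value. Annotated exons of *Mt1* merge into 1 block over the whole gene (1246 bases), those of *Mt2* into 3 blocks (588 bases). A shorter *Mt1* transcript would likewise raise its value per kilobase. The order of the 10 levels was the same in both conditions. *Txnrd1* and *Gclm* did not differ beyond their spread in subjective day.

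**Figure D1:**
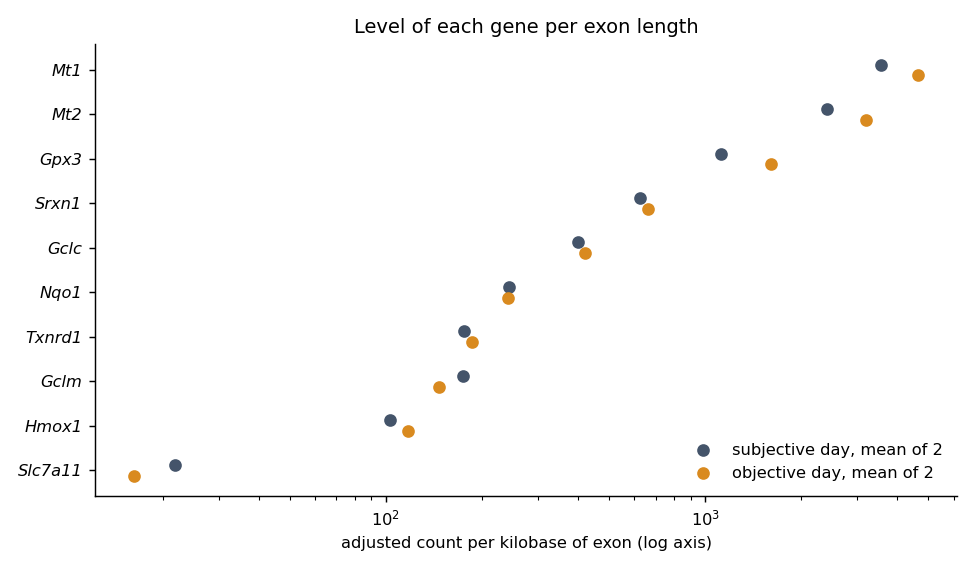
Mean adjusted count per kilobase of exon (log axis) of each gene in subjective and objective day, 2 samples each. *Mt1* lies highest at 3568 and 4652 and *Slc7a11* lowest at 21.8 and 16.3.

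*Mt1* (ENSMUSG00000031765; chromosome 8 of GRCm38, 94179082 to 94180327, plus strand) had adjusted counts of 4754 and 4137 in the subjective day samples. In the objective day samples it had 5878 and 5715. Both objective day samples thus lay above both subjective day samples, and the objective day pair was the tighter one. The means were 4445 ± 437 (SD, n = 2) and 5796 ± 116 (SD, n = 2). The log2 fold change was 0.39 (standard error 0.078 and, by limma, adjusted p = 0.0260), which corresponds to a rise of 30.7%.

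*Mt2* (ENSMUSG00000031762; chromosome 8, 94172664 to 94173568, plus strand) lies next to it, with 5513 bases between the 2 genes. Its adjusted counts were 1519 and 1308 in subjective day. They were 1897 and 1862 in objective day. The conditions again did not overlap, and the lower of the subjective day samples was the same one as for *Mt1*. The log2 fold change was 0.41 (standard error 0.083 and, by limma, adjusted p = 0.0253), which corresponds to a rise of 33.3%.

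*Mt1* and *Mt2* kept nearly the same proportion in each sample. The ratio of *Mt1* to *Mt2* was 3.13 and 3.16 in subjective day against 3.10 and 3.07 in objective day, a log2 difference of -0.029 between the conditions, given without a test. None of the 50-base windows of the longest *Mt1* transcript occurs in a transcript of another annotated gene. Of those of *Mt2*, 45.5% occur in Gm45774, which overlaps *Mt2* on the opposite strand and is not listed in the table. Since the strand setting of the counting is not given in the sources used here, reads of that RNA would not be told apart from *Mt2*. *Mt3*, the metallothionein known from neurons, had a log2 fold change of 0.057 (limma, adjusted p = 0.804) and was named after its value was seen.

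Neither gene passed the threshold when an objective day sample was left out, although the log2 fold changes stayed between 0.37 and 0.43. Such a fit has 1 objective day sample. Its spread within a condition comes from the subjective day pair alone, beside the variances shared across genes.

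Of the 10 members, 2 were called higher at an adjusted p under 0.05 and 0 lower. Of all genes tested, 8.51% were called, 1.06% higher and 7.45% lower in objective day. At an unadjusted p under 0.05, 4 members passed, the others being *Gclm* and *Slc7a11*, and so did 25.4% of all genes tested. The conditions did not overlap for 6 of the 10 members, and the same held for 56.1% of all genes tested. The median log2 fold change was 0.085 over the members and 0.015 over all genes tested.

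**Figure D2:**
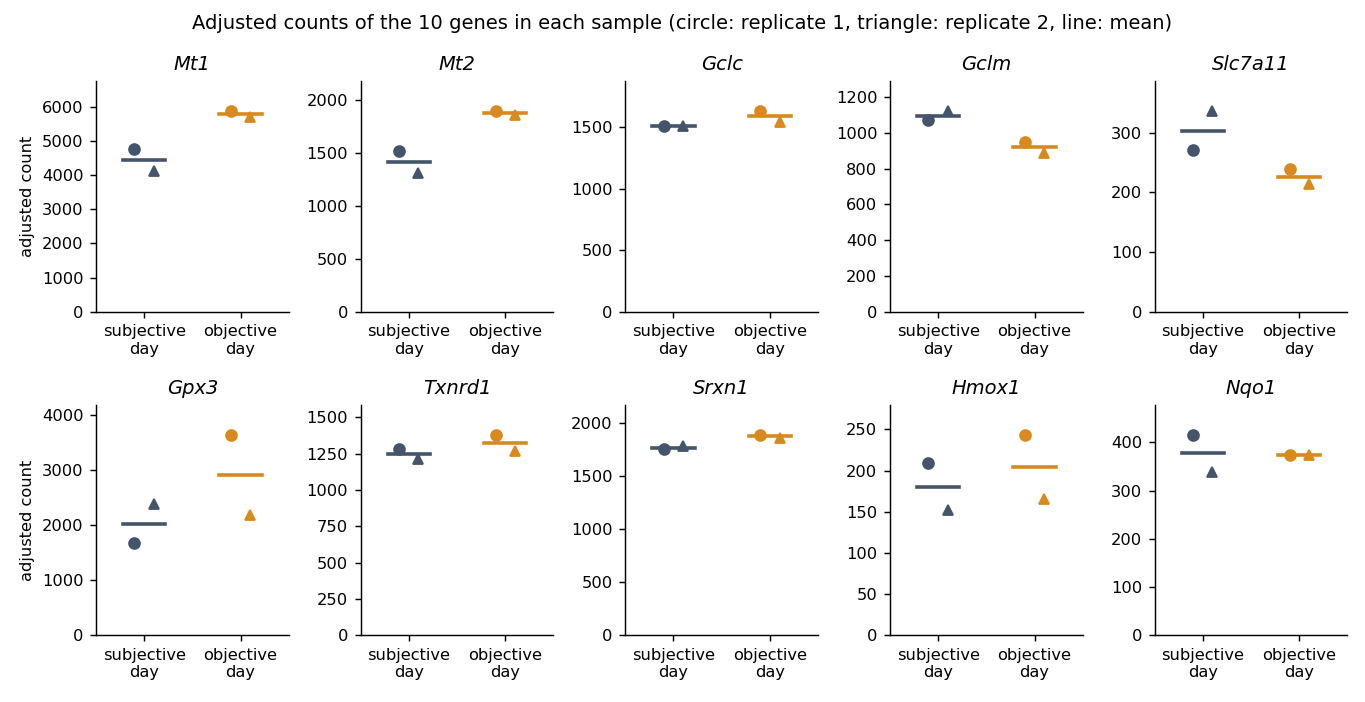
Adjusted counts (vertical axis from 0, a scale of its own for each gene) of the 10 genes in the subjective and objective day samples. *Mt1* and *Mt2* lie higher in both objective day samples, *Gclm* and *Slc7a11* lie lower in both, and *Gpx3* is spread by objective day replicate 1 at 3644.

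Glutathione is made in steps that begin with import of cystine and its joining to glutamate. The enzyme glutamate-cysteine ligase pairs a catalytic subunit (*Gclc*) with a modifier subunit (*Gclm*). *Gclc* (chromosome 9, 77754535 to 77794485, plus strand) had adjusted counts of 1507 and 1511 in subjective day against 1629 and 1543 in objective day. The log2 difference of *Gclc* was 0.071 (95% confidence interval -0.079 to 0.22, limma, adjusted p = 0.534). It was 0.032 without objective day replicate 1 and 0.11 without objective day replicate 2. The subjective day samples were almost equal, and the objective day samples lay just above them.

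*Gclm* (chromosome 3, 122245557 to 122270732, plus strand) had 1072 and 1122 in subjective day against 952 and 890 in objective day. Both objective day samples were below both subjective day samples. The log2 fold change of -0.25 (95% confidence interval -0.42 to -0.081) did not pass the threshold after adjustment (limma, adjusted p = 0.0802). With the replicate block of the closing section it did (limma, adjusted p = 0.0346), while with the GC trend removed the value was 0.010. *Gclm* shares exonic bases with Gm6061 on its own strand and with Gm17494 on the other, so its count is uncertain.

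The ratio of *Gclc* to *Gclm* was 1.41 and 1.35 in subjective day against 1.71 and 1.73 in objective day. It was therefore higher in both objective day samples, by 0.32 on the log2 scale. This ratio was chosen after the values were seen and was not tested. With the trend with GC content removed, described further on, the difference was 0.084.

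**Figure D3:**
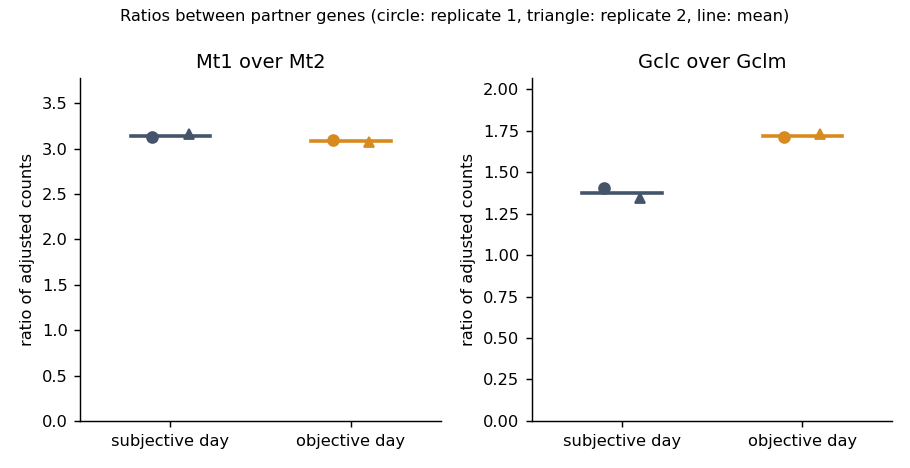
Ratios of adjusted counts (vertical axes from 0) of *Mt1* to *Mt2* and of *Gclc* to *Gclm* in each sample, with the mean of each condition. The first ratio stays between 3.07 and 3.16, and the second is 1.35 to 1.41 in subjective day and 1.71 to 1.73 in objective day.

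*Slc7a11* (chromosome 3, 49892526 to 50443614, minus strand), the light chain of the exchanger that imports cystine for glutathione, had 271 and 336 in subjective day. It had 239 and 214 in objective day. The conditions did not overlap, but the subjective day samples differed from each other by more than the objective day ones did. The log2 fold change was -0.41 (95% confidence interval -0.74 to -0.086, limma, adjusted p = 0.119). It was -0.57 without subjective day replicate 1 and -0.26 without subjective day replicate 2.

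*Gpx3* (chromosome 11, 54902453 to 54910377, plus strand) had the largest fold change of the members and the widest spread. Its adjusted counts were 1674 and 2388 in subjective day against 3644 and 2184 in objective day. A single sample, objective day replicate 1, stood above the other samples, and the conditions overlapped. The log2 fold change was 0.50 (95% confidence interval -0.070 to 1.06, limma, adjusted p = 0.249). It was 0.13 without objective day replicate 1 and 0.87 without objective day replicate 2, fits that leave 1 objective day sample.

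The thioredoxin system reduces protein disulfides and restores peroxiredoxins. Thioredoxin reductase *Txnrd1* (chromosome 10, 82833951 to 82897712, plus strand) had 1280 and 1211 in subjective day against 1380 and 1266 in objective day. These ranges overlapped, and the log2 fold change was 0.086 (95% confidence interval -0.087 to 0.26, limma, adjusted p = 0.512). Without objective day replicate 1 it was 0.024, and without objective day replicate 2 it was 0.15. Sulfiredoxin *Srxn1* (chromosome 2, 152105516 to 152111376, plus strand), which repairs overoxidized peroxiredoxins, had 1750 and 1782 in subjective day. It had 1887 and 1859 in objective day, above both. The log2 fold change of *Srxn1* was 0.085 (95% confidence interval -0.056 to 0.23, limma, adjusted p = 0.424), a difference that the test did not separate from the spread.

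The remaining enzymes act on heme and quinones. *Hmox1* (chromosome 8, 75093621 to 75100589, plus strand) had 209 and 152 in subjective day against 243 and 166 in objective day. Replicate 1 was the higher sample in each condition, and the conditions overlapped. The log2 fold change was 0.17 (95% confidence interval -0.35 to 0.69, limma, adjusted p = 0.676), an interval that includes both a fall and a rise. Markers of microglia and macrophages, cells in which *Hmox1* is often abundant, had a summed level of 3190 to 4024 in subjective day and 4046 to 4185 in objective day. All 8 had log2 fold changes above 0, from 0.0061 to 0.61 (*Aif1*) with a median of 0.25, and *Csf1r*, the most abundant of them, had 0.086 (limma, adjusted p = 0.614). Of these 8 markers 0 were called, none was at 0, and their part in *Hmox1* was not tested.

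The quinone reductase *Nqo1* (chromosome 8, 107388225 to 107403206, minus strand) had 415 and 338 in subjective day. The objective day samples, 374.4 and 373.8, lay between them. The log2 fold change was -0.0034 (95% confidence interval -0.28 to 0.28, limma, adjusted p = 0.99). Thus the data bound the change of *Nqo1* more narrowly than that of *Hmox1* or *Gpx3*.

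**Figure D4:**
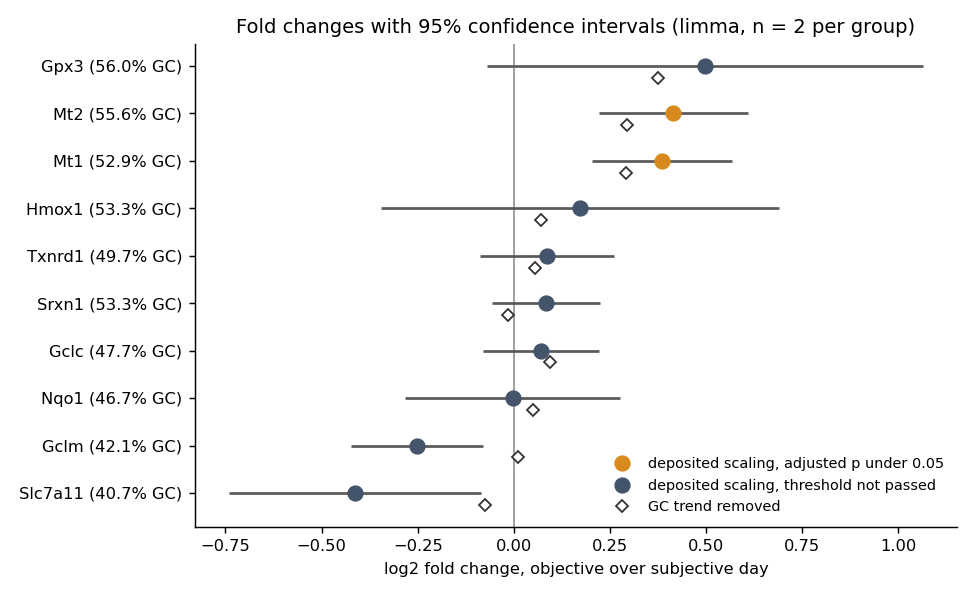
Log2 fold change (objective over subjective day) of each gene with its 95% confidence interval from limma, and the value with the GC trend removed (open diamonds). Genes are ordered by fold change, with the GC content of the longest transcript beside each name, from *Slc7a11* (40.7%) at -0.41 to *Gpx3* (56.0%) at 0.50.

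The fold changes of the members followed the GC content of their transcripts. The Spearman correlation was 0.93 across the 10 genes, which share the same 4 libraries and are not independent, compared with 0.583 across 17536 genes. With the GC trend removed, the order of the members by GC content still gave 0.711. *Slc7a11* and *Gclm* had the lowest GC content (40.7% and 42.1%) and the lowest fold changes. For the 1227 genes within 1 percentage point of *Gclm* the median log2 fold change was -0.25, the same as that of *Gclm* itself. For *Slc7a11* the corresponding median was -0.34 over 1017 genes.

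*Mt1* and *Mt2* exceeded the median of genes of like GC content, and so did *Gpx3*, *Hmox1*, *Txnrd1*, *Gclc* and *Nqo1*. For *Gpx3*, 0.50 stood against a median of 0.13. The spread of such genes around their median is not given. The median was 0.097 over the 1866 genes nearest to *Mt1* (52.9%) and 0.12 over the 1639 nearest to *Mt2* (55.6%), against 0.39 and 0.41 for the genes themselves. When the trend with GC content was removed from each sample by local regression, the log2 fold change was 0.29 for both, and limma gave adjusted p values of 0.0957 and 0.103. With that setting 0 of the 10 members were called, and so were 1.07% of all genes tested. *Gclm* went to 0.010 and *Slc7a11* to -0.074, while *Gpx3* was 0.37 (limma, adjusted p = 0.569). *Srxn1* changed sign to -0.016 and *Nqo1* to 0.050. Whether GC content as such or a factor that accompanies it moved these genes was not tested.

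The members were then set beside 73 related genes in lists of their pathways, of which 71 were in the table and tested. Of these, 1 was called higher and 4 lower, against 1.06% and 7.45% of all genes tested, and the median log2 fold change was 0.027. The 5 called genes belonged to 4 of the 7 lists, and no list had more than 2.

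Among 9 genes that control Nrf2, *Cul3*, which codes for the scaffold of the ligase that degrades Nrf2, fell from 7094 and 7710 in subjective day to 5478 and 4876 after light. The *Cul3* log2 fold change was -0.52 (limma, adjusted p = 0.0101, and 0.0512 without objective day replicate 2). The *Cul3* transcript has a GC content of 38.5%, and with the GC trend removed its log2 fold change was -0.054. *Nfe2l2* itself had 1245 and 1251 in subjective day against 1216 and 1097 in objective day, with a log2 fold change of -0.11 (limma, adjusted p = 0.394). *Keap1* had a value of 0.092 (limma, adjusted p = 0.506). The small Maf partner *Maff* showed the largest value of the list, 0.80, from low levels of 39.9 and 45.3 to 74.7 and 74.6 (limma, adjusted p = 0.0579). *Maff* did pass the threshold with scaling to column totals. *Nfe2l2*, *Keap1* and *Maff* were named after their values were seen.

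Of 16 further glutathione enzymes and transporters tested, 2 were called lower and 0 higher, with a median log2 fold change of 0.0041. *Gsto1*, an omega class glutathione transferase, fell from 4372 and 4215 to 1481 and 2241. Its log2 fold change of -1.24 (standard error 0.17 and, by limma, adjusted p = 0.0071) was beyond that of any member, and it was -1.31 with the GC trend removed (limma, adjusted p = 0.0274). With a constant variance prior its adjusted p was 0.133 by limma, a setting under which no gene was called. *Gsta4*, a transferase for lipid peroxidation products, fell from 3296 and 3090 to 2235 and 2689 (log2 fold change -0.38, limma, adjusted p = 0.0496). Its adjusted p was 0.0564 without subjective day replicate 1, 0.283 without objective day replicate 1, 0.0523 when genes were not filtered, 0.0699 with scaling to column totals, 0.0973 with the GC trend removed and 0.225 with a constant variance prior, so that the call did not hold in any of these. In these settings *Gsta4* had log2 fold changes of -0.25 to -0.40.

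Markers of the ocular surface epithelium moved in the same direction as *Gsto1*. All 4 of the markers tested were called lower, with a summed level of 10375 and 10854 in subjective day against 2965 and 5430 in objective day, and objective day replicate 1 was the lowest for *Gsto1* and for the markers. *Krt15*, the most abundant of them, fell from 5044 and 5332 to 1348 and 2637. With the GC trend removed 2 of the 4 stayed called, and *Krt15* had -1.58 on the log2 scale (limma, adjusted p = 0.0502). No marker was at 0 in every sample, and *Krt12*, the corneal keratin, was between 1.78 and 12.5. Their part in the values of *Gsto1* and *Gsta4* was not tested.

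Of 12 thioredoxin and peroxiredoxin genes 0 were called, at log2 fold changes from -0.21 to 0.13. *Txn2*, the mitochondrial thioredoxin, had a value of 0.13 (limma, adjusted p = 0.272) and *Prdx2*, a cytosolic peroxiredoxin, had 0.086 (limma, adjusted p = 0.556). At an unadjusted p under 0.05, 18 of the 71 related genes passed, compared with 25.4% of all genes tested (4512).

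Among superoxide dismutases and catalase, *Sod3*, the secreted superoxide dismutase, rose from 575 and 649 to 1021 and 824. The conditions did not overlap, and the log2 fold change was 0.59 (standard error 0.12 and, by limma, adjusted p = 0.0258). With the GC trend removed it was 0.49 (limma, adjusted p = 0.113), and without objective day replicate 1 it was 0.43 (adjusted p = 0.112). The other 4 genes of this list were not called, and their values ran from -0.15 to 0.11.

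The 15 other Nrf2 targets included 0 called genes, with a median of 0.084. *Fth1*, the ferritin heavy chain that stores iron, had a log2 fold change of 0.11 (limma, adjusted p = 0.451). *Tkt*, a transketolase of the pentose phosphate pathway, had 0.15 (limma, adjusted p = 0.253). In heme degradation 0 of 3 genes were called. The constitutive heme oxygenase *Hmox2* had 0.073 (limma, adjusted p = 0.619), and the biliverdin reductase *Blvra* had 0.038 (limma, adjusted p = 0.874). *Hmox2* shares exonic bases with *Cdip1* on the opposite strand, so its count is uncertain.

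In metal handling, 1 of 11 genes was called. The transferrin receptor *Tfrc*, which takes up iron, fell from 4328 and 4199 to 2961 and 2839, with a log2 fold change of -0.56 (limma, adjusted p = 0.00558). Its GC content is 39.8%, and with the GC trend removed the value was -0.16 (limma, adjusted p = 0.289). The zinc sensor gene *Mtf1*, named after its value was seen because it acts on *Mt1* and *Mt2*, had 1819 and 1910 in subjective day against 2108 and 2097 in objective day. Its log2 fold change of 0.17 did not pass the threshold (limma, adjusted p = 0.133). *Mtf1* and *Prdx2* share exonic bases with genes of the opposite strand, so their counts are uncertain.

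**Figure D5:**
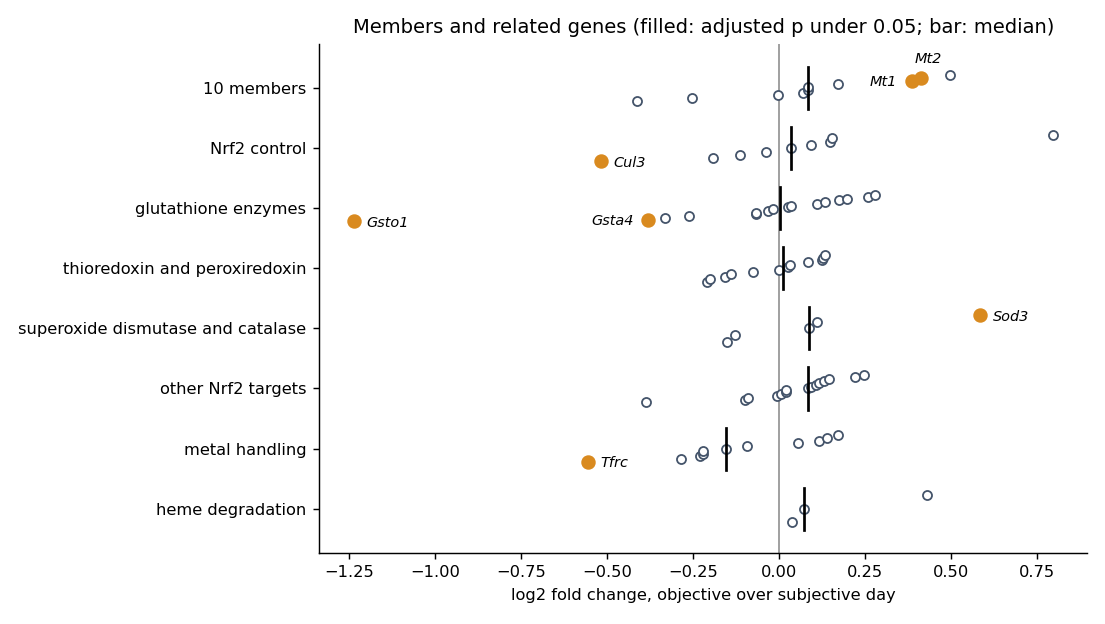
Log2 fold change (objective over subjective day) of the 10 members and of 71 related genes in 7 lists; each point is a gene, filled points have an adjusted p under 0.05, and bars are medians. *Mt1*, *Mt2* and *Sod3* are the called genes on the right, and *Gsto1*, *Gsta4*, *Cul3* and *Tfrc* those on the left.

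Other marker lists had fewer called genes. Of 5 markers of Müller glia, the support cells of the retina, 2 were called lower (*Aqp4* and *Slc1a3*), but with the GC trend removed neither was (-0.13 and -0.25 on the log2 scale; limma, adjusted p = 0.33 and 0.0924). *Glul*, the most abundant of them, had a log2 fold change of -0.068, *Kcnj10* had 0.10 and *Rlbp1* had 0.0024. The summed level of the Müller markers was 103127 to 111292 in subjective day and 98595 to 103803 in objective day, so that the conditions overlapped. Of the red blood cell markers 1 of 2 tested was called higher (*Hba-a1*, which has near-identical copies), with sums of 1228 to 1383 and 1931 to 2184. Of 4 sclera fibroblast markers 1 was called lower (*Lum*, log2 fold change -0.74; limma, adjusted p = 0.0477), and with the GC trend removed it had -0.47 (adjusted p = 0.323). By sign 2 of the 4 were higher and 2 lower, from -0.74 to 0.40 (*Col1a1*). *Dcn*, the most abundant of that list, had -0.32 (limma, adjusted p = 0.35), and 0.21 with the GC trend removed. The sums of the sclera markers were 9920 to 15359 and 11018 to 12535.

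No RPE, endothelial or lens marker was called by limma. Log2 fold changes ran from -0.14 to 0.35 over the RPE markers (*Rgr*, the most abundant, -0.050). They ran from -0.14 (*Kdr*, the most abundant) to 0.44 (*Plvap*; limma, adjusted p = 0.0522) over the endothelial markers, with a median of 0.12. Over the lens markers they ran from -0.33 to 1.2 (*Crygs*, the most abundant, 0.55). The lens markers differed widely within each condition, with sums of 4944 and 335 in subjective day against 3768 and 866 in objective day. None of the markers named was at 0 in every sample, and their part in the values of the members was not tested.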

How the data were processed

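RNA-seq of 2 subjective and 2 objective day samples was analysed. Per the submitters' processing notes, CASAVA 1.8, TopHat2 2.0.9, Bowtie2 2.1.0, HTSeq and edgeR were used. The authors deposited the values as adjusted counts per gene, treated here as signal because they are not whole numbers. The strand setting and normalization are not given in the sources used here. Columns of the authors' own comparison (log2 fold change, log2 CPM, p and FDR) were not used.

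A gene was kept when 2 or more samples reached 10, and limma 3.58.1 (R 4.3.3) was run on log2(value + 1), with a variance trend and Benjamini-Hochberg adjustment over all genes tested. The study's methods call the 2 samples of a condition biological replicates. No pair of samples held identical values, and none were merged. GC content came from GENCODE M21 (GRCm38) and was known for 98.6% of tested genes. Its trend was removed by loess (span 0.3). Figures were drawn with matplotlib 3.10.9. The scripts were tested on simulated data. Alternatives changed the pseudocount (0.5 or 10), the filter, the scaling, the variance prior, the GC trend and a replicate block, and left out each sample in turn.

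All members were named, together with called genes of the pathway lists and the 2 most abundant genes of lists without calls. Of each marker list reported the most abundant gene was named, and *Krt12*, *Best1*, *Aqp4*, *Slc1a3*, *Kcnj10*, *Rlbp1*, *Col1a1*, *Plvap*, *Aif1* and *Lum* were added after their values were seen. The members and lists were chosen with earlier results of these data known. Whole reads could not be recovered in every sample, so no counting intervals are given. The result of 1 marker list is not reported here.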

Additional observations from a re-analysis of the deposited data

How the results depend on the processing

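*Mt1* and *Mt2* kept their direction in 14 of 14 alternatives and were called in 10 of 14, with adjusted p from 0.00223 to 0.179 and from 0.002 to 0.172. The main test called 1514 genes, 2 members and 5 related genes. With a constant variance prior these were 0, 0 and 0, although 3586 genes had an unadjusted p under 0.05. With the GC trend removed they were 188, 0 and 1. Scaling to column totals gave 1814 genes, 33.7% of them higher against 12.5%, and a median shift of 0.055. The causes were not tested. Leaving out 1 sample gave 664 to 2557 genes, 0 to 3 members and 3 to 7 related genes. The lowest counts came without objective day replicate 2 (664 genes) and replicate 1 (736 genes, 0 members, 3 related genes), the highest without subjective day replicate 1 (2557 genes).

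The labels do not say that a replicate number marks a shared batch or day, so the numbers were not taken as a pairing. The deviations of same-numbered samples correlated at 0.319, and 2 pairs are too few to settle it. With the replicate block, 3613 genes, 3 members (*Gclm* added, adjusted p = 0.0346 from limma) and 15 related genes were called, and with the block and the GC trend removed 1124, 2 and 4. *Maff* was among the 15 (adjusted p = 0.0304 from limma).

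Direction reversed for *Gclm* (0.010), *Srxn1* (-0.016) and *Nqo1* (0.050) with the GC trend removed, with or without the block, and for *Nqo1* with column totals (0.037). With the GC trend removed it also reversed for *Keap1* (-0.039), *Mt3* (-0.095), *Csf1r* (-0.026), *Rlbp1* (-0.093) and *Dcn* (0.21). Leaving out 1 sample also reversed *Nqo1* (range -0.15 to 0.14), *Hmox1* (-0.10 to 0.45), *Blvra* (-0.083 to 0.16), *Hmox2* (-0.014 to 0.16) and *Prdx2* (-0.026 to 0.20). A count test was not run, because whole reads could be recovered in subjective day replicate 1 but not in the other 3 samples. Depth is unknown.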
